A study of Mus musculus with 27 samples.

Results

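The 10 genes described here encode enzymes that build fatty acids and join them to glycerol. They were chosen by name: Acly, Acaca and Fasn make palmitate, Elovl6, Scd1 and Scd2 lengthen and desaturate it, and Gpd1, Agpat2, Dgat1 and Dgat2 serve the assembly of triglyceride. All 10 were found among the 37991 genes measured, and all 10 passed the filter on low counts that left 15659 genes for testing. Between day 2 and day 18 of osteoblast differentiation, 4 of them rose (Gpd1, Dgat2, Scd1 and Agpat2), 3 fell (Fasn, Acly and Acaca) and 3 had no slope that passed the test (Scd2, Elovl6 and Dgat1). The fitted rises ran from 1.50 (Agpat2) to 9.22 (Gpd1) on the log2 scale, and the fitted falls from -0.86 (Fasn) to -0.35 (Acaca).

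In the cytosol, ATP citrate lyase splits citrate that has left the mitochondrion into acetyl-CoA, acetyl-CoA carboxylase makes malonyl-CoA from it, and fatty acid synthase condenses these units into palmitate with NADPH as the reductant. Elongases and stearoyl-CoA desaturases turn palmitate into longer and monounsaturated fatty acids. Triglyceride is assembled by adding acyl chains to glycerol 3-phosphate, removing the phosphate and adding the last chain. These genes are best known in liver and fat, while membrane lipids draw on the early steps in every growing cell. Transcripts of the genes are measured here, not lipid or enzyme activity.

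The cells came from the skull vault of neonatal C57BL/6J-Col3.6 CFP mice, 5 to 9 days old, in which a fragment of the collagen type I promoter (Col3.6) drives cyan fluorescent protein. Cells freed by the last 3 of 4 rounds of trypsin and collagenase P digestion were grown for 4 days and sorted for the fluorescent protein. They were then cultured in αMEM with ascorbic acid, beta-glycerol phosphate and serum. All 9 groups share 1 strain, 1 sorting criterion and 1 medium. They differ in the day of harvest (2, 4, 6, 8, 10, 12, 14, 16 and 18). Each day has 3 profiles numbered as replicates, which carry 1 barcode and come from 3 sequencing lanes, and they were summed to 1 library per day. No source used here states whether the days come from separate cultures or from 1 pool of animals. There is thus no biological replicate at any day, and each test below uses the days themselves.

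Levels are given as normalised CPM, read counts scaled to a common library size with upper-quartile factors, which compare 1 gene across days, or as TPM, relative transcript abundance after division by length, which compares genes with each other. The library totals ranged from 22470195 counts on day 10 to 62009157 on day 12. Of 9 osteoblast markers, 7 rose along the line and none fell. Col1a1, the main collagen of bone, which like Sp7 and Alpl was picked after its values were seen, was abundant from the start (4963 normalised CPM on day 2). The late markers Bglap (osteocalcin) and Ibsp (bone sialoprotein) went from 0.117 to 17.8 and from 0.701 to 88.9. The osteoblast factor Sp7 and the phosphatase Alpl did not pass as lines but changed by the spline (adjusted P = 1.20e-05 and 0.00765): Sp7 had 49.8 normalised CPM on day 2, 3.70 on day 8 and 14.2 on day 18, and Alpl 13.8, 2.14 and 24.7. Markers of other cell types were present in this sorted culture. The summed level of 9 adipocyte markers went from 8.84 to 507 TPM, and that of 7 monocyte and macrophage markers from 24.1 to 2014 TPM. In bulk RNA of this kind, fewer cells of a type and less RNA per cell cannot be told apart.

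The desaturases led the enzyme genes in level. By their mean TPM over the 9 days, Scd2 (175 ± 36.0, SD over days, n = 9) and Scd1 (130 ± 107) were the most abundant, followed by Acly (65.6 ± 15.7). Fasn stood at 31.0 ± 6.70 TPM, Elovl6 at 20.8 ± 4.76, Gpd1 at 20.6 ± 27.2 and Agpat2 at 18.6 ± 8.42. The acyltransferases of the last step were lowest, with 10.6 ± 1.66 TPM for Dgat1 and 8.35 ± 7.41 for Dgat2. The SD of Gpd1 exceeded its mean and that of Scd1 was close to it, since both genes were many times higher at the end than at the start. In this order, the steps from Acly to Fasn and from Fasn to Elovl6 were larger than the greater SD of the pair, and the other neighbours did not differ beyond their spread. Acaca is left out of the order because its TPM is unstable, as described below.

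**Figure D1:**
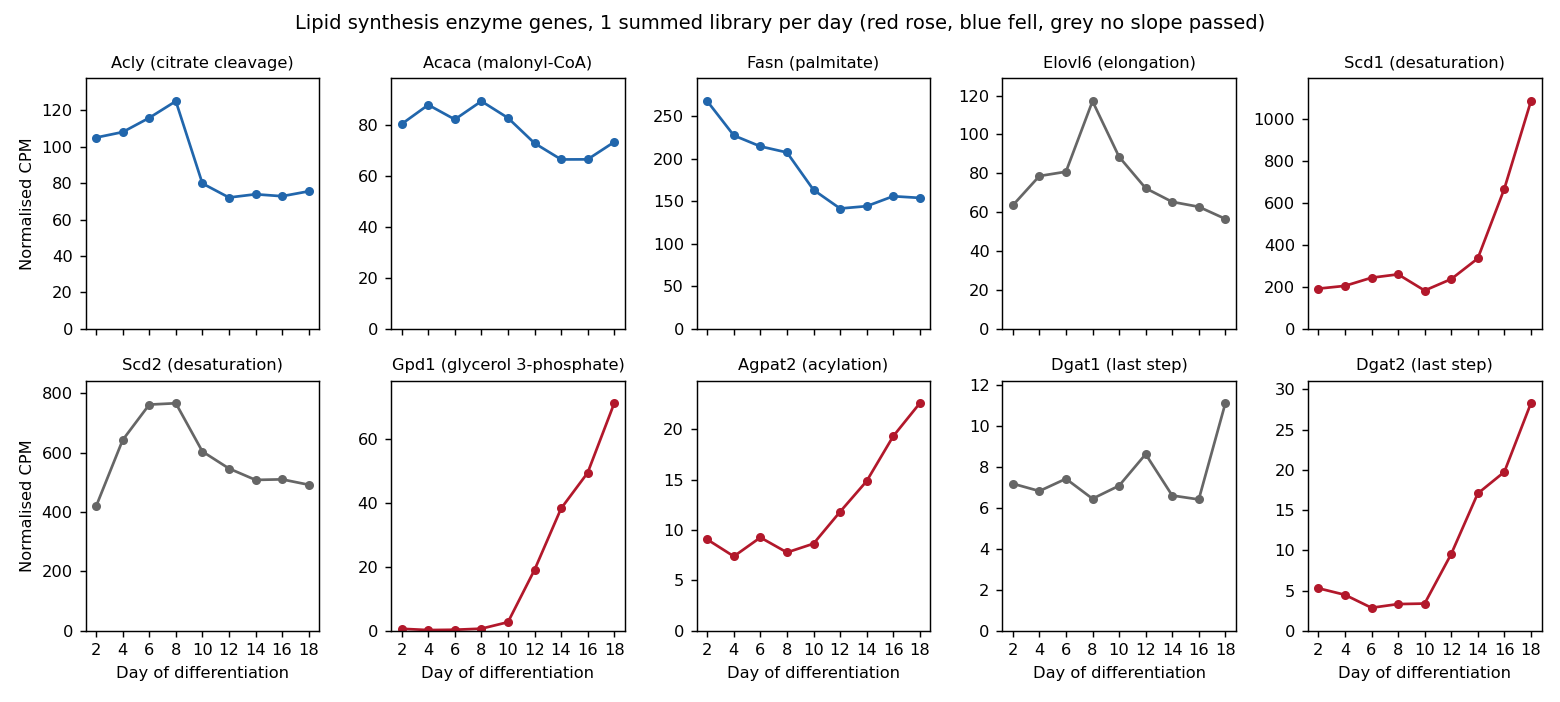
Normalised CPM (vertical axis, from 0) against day of differentiation (horizontal axis) for the 10 enzyme genes, with 1 point per summed library. Gpd1, Dgat2, Agpat2 and Scd1 climb after day 10, and Fasn, Acly and Acaca end below their starting levels. Acly, Acaca, Scd2 and Elovl6 have their highest value on day 8.

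A straight line in day was fitted to each of the 15659 genes to ask which followed differentiation. Of the 10 enzyme genes, 4 rose, where 28.3% of all genes tested did, and 3 fell, where 26.1% did. The 7 called genes compare with 54.3% of all genes called in either direction, so the share was not far from that of the whole transcriptome. The median change of the 10 genes was 0.03 and that of all genes tested 0.05 on the log2 scale. In TPM (limma) the medians were 0.83 and 0.12 after upper-quartile scaling and 0.66 and -0.02 as deposited, with Acaca turned to a rise as described below. A spline in day, which also finds genes that rise and fall again, called 9 of the 10 against 59.1% of all genes.

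**Figure D2:**
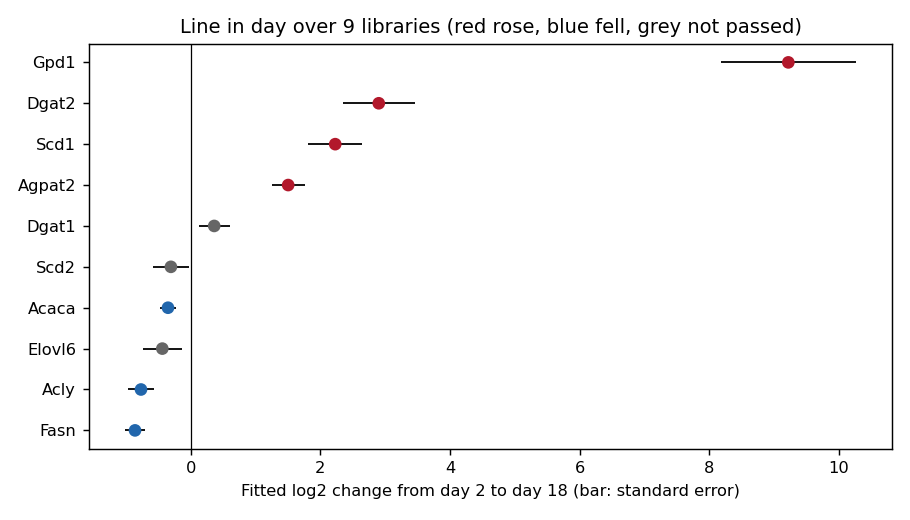
Fitted log2 change from day 2 to day 18 (horizontal axis) for each enzyme gene, with its standard error as a bar, from the line through 9 libraries. The 4 rises (1.50 to 9.22) lie farther from 0 than the 3 falls (-0.86 to -0.35).

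The early steps of fatty acid synthesis went down. Fasn, the multienzyme chain that builds palmitate (ENSMUSG00000025153, NCBIM37 chr11:120667254-120685492, minus strand), had 268, 227 and 214 normalised CPM on days 2, 4 and 6, then 207, 163 and 141 on days 8, 10 and 12, and 144, 156 and 154 on days 14, 16 and 18. Its highest value was on the first day and its lowest on day 12, and each of the 3 late days was below each of the 3 early days. The line gave a log2 change of -0.86 (SE = 0.15, adjusted P = 0.000872, edgeR) and the spline an adjusted P of 3.45e-05. Taken as groups, days 8, 10 and 12 were already below days 2, 4 and 6 (log2 difference = -0.47, SE = 0.14, adjusted P = 0.0356). Day 8 alone (207) was close to day 6 (214), and the call was not made without day 4 or day 12.

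Acly, which supplies cytosolic acetyl-CoA (ENSMUSG00000020917, chr11:100337667-100389314, minus strand), had 105, 108, 116 and 125 normalised CPM on days 2, 4, 6 and 8, the last its highest value. It then stood at 79.8, 72.1, 73.9, 72.8 and 75.5 on days 10, 12, 14, 16 and 18. Every value up to day 8 was above every value from day 10. That cut was picked after the values were seen, and the share of all genes with such a cut was not counted. The fitted line fell by 0.77 on the log2 scale (SE = 0.20, adjusted P = 0.00755). Acaca, which makes malonyl-CoA at the committed step (ENSMUSG00000020532, chr11:83943174-84215153, plus strand), changed least of the 3, from 80.5, 88.0 and 82.3 normalised CPM on days 2, 4 and 6 to 66.6, 66.6 and 73.4 on days 14, 16 and 18. Its values on days 8, 10 and 12 were 89.5, 82.9 and 73.0. The late days again lay below the early ones, by a log2 difference of -0.28 (SE = 0.10, adjusted P = 0.0379). The line of Acaca (-0.35, SE = 0.13, adjusted P = 0.0357) passed the threshold by a small margin, and with day 4, 6, 12, 14 or 16 left out the adjusted P was 0.0524 to 0.0949.

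Over the 9 libraries the log2 levels of Fasn and Acly moved together (Pearson r = 0.871), as did those of Acaca and Acly (r = 0.839), which is a description of libraries that share a common trend. The promoters of both Fasn and Acly, and of Agpat2, which rose, are shown to set the sequence upstream of genes that moved in opposite directions side by side. They are the 250 bases before the start site in RefSeq (GRCm38.p6, a later build than that of the expression files), written 5′ to 3′ on the strand of the gene, and capitals mark the CCAAT boxes (CCAAT) in Fasn and the GC boxes (GGGCGG) in Acly and Agpat2, on either strand. Fasn is read from chr11:120824548-120824797 (minus strand), Acly from chr11:100528001-100528250 (minus strand) and Agpat2 from chr2:26604418-26604667 (minus strand).
Fasn: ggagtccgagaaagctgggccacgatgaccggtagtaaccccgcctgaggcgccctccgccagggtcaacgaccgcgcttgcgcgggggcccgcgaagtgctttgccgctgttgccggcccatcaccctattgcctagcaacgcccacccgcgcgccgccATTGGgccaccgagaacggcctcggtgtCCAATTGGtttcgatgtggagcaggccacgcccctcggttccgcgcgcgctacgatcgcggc
Acly: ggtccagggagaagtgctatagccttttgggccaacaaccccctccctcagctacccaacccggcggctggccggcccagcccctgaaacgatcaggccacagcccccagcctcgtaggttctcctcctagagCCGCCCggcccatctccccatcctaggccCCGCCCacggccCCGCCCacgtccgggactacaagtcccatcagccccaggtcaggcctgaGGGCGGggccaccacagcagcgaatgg
Agpat2: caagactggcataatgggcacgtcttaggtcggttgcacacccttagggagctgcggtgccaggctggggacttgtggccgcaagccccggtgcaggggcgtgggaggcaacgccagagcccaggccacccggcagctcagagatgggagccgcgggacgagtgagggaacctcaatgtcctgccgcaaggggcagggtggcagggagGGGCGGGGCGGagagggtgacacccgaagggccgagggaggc
Fasn carried 3 CCAAT boxes, whose first bases lie at -90, -62 and -59 from the start site, and the last pair overlaps on opposite strands. Acly carried 4 GC boxes, at -117, -88, -76 and -27, and Agpat2 carried 2, which overlap by 1 base, at -42 and -37. At least 1 CCAAT was found in 34.5% and at least 1 GGGCGG in 32.9% of 27025 promoters of the same length. Holding a match is thus common, and how many promoters hold as many copies as Fasn or Acly was not counted. Promoters were matched for 5 of the 10 genes (Fasn, Acaca, Acly, Elovl6 and Agpat2). None of the 5 held an E-box (CACGTG, on either strand), which was found in 6.05% of all promoters. A match or its absence in this window is a matter of letters only.

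Acaca needs its counts rather than its TPM. The annotation lists 7 transcripts of the gene, 3 long ones of 9026 to 9513 bases and 4 short ones of 227 to 889 bases, and the mean length that RSEM assigned to the gene ranged from 920 to 8476 bases among profiles. On day 16 the 3 profiles held 1086, 1103 and 1095 estimated counts and 91.3, 13.8 and 154 TPM. The profiles of 1 day differed up to 11.1-fold in TPM and at most 1.07-fold in count. The median coefficient of variation among profiles of a day was 72.5% in TPM and 1.75% in CPM, where the medians over 5860 genes with a mean of at least 300 counts were 4.08% and 2.99%. Among those genes, 1 had a larger variation in TPM. A line through the TPM of Acaca rose (1.60, adjusted P = 0.0318, limma), against the fall in its counts. With 1 fixed length per gene, a setting added after the data were seen, the TPM of Acaca was 36.9 on day 2, 42.8 on day 8 and 36.2 on day 18 and its line was -0.25 (adjusted P = 0.151).

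**Figure D3:**
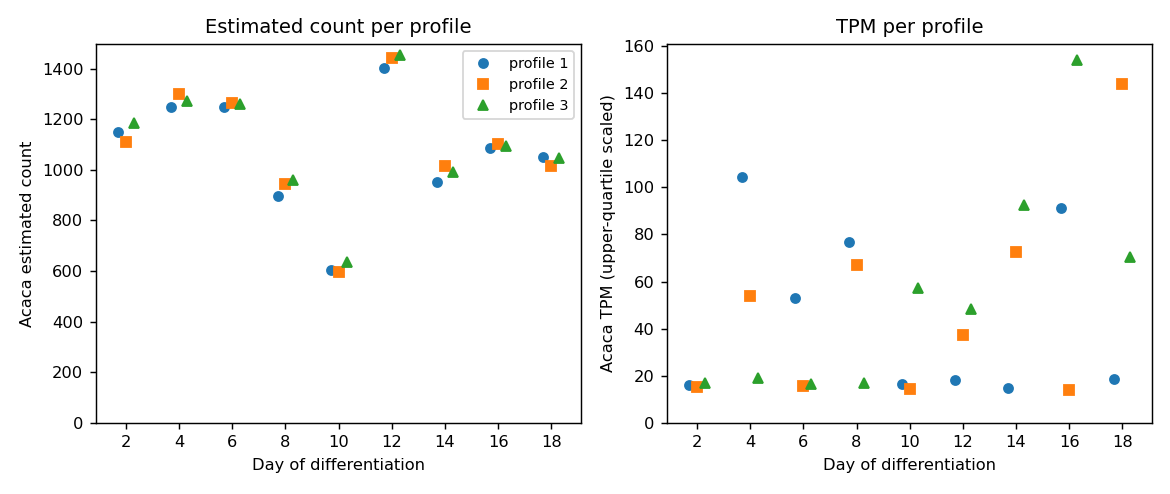
Estimated count (left, from 0) and upper-quartile scaled TPM (right, from 0) of Acaca in each of the 27 profiles against day of differentiation, with marker shape for the profile number. The 3 profiles of a day nearly coincide in count but spread from 13.8 to 154 in TPM on day 16.

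The enzymes that modify palmitate went separate ways. Scd1, a desaturase that makes palmitoleate and oleate (ENSMUSG00000037071, chr19:44468941-44482199, minus strand), had 191, 204 and 243 normalised CPM on days 2, 4 and 6, then 259, 182 and 237 on days 8, 10 and 12, and 335, 668 and 1086 on days 14, 16 and 18. It varied without a clear course up to day 12, and the 3 late days were the 3 highest of the series. The line rose by 2.23 (SE = 0.42, adjusted P = 0.00123) and the late days exceeded the early days by 1.71 (SE = 0.35, adjusted P = 0.00341). On day 18 its level of 376 TPM ranked at percentile 98.6 of the genes in the library.

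Scd2, another desaturase of the same gene cluster (ENSMUSG00000025203, chr19:44368166-44381354, plus strand), started at 419.7 normalised CPM on day 2, reached 643 on day 4, 762 on day 6 and 767 on day 8, and then stood at 604, 547, 508, 510.1 and 492 from day 10 to day 18. Its maximum lay on day 8 in normalised CPM and on day 6 in TPM, and its lowest value was on day 2 in both. Elovl6, which extends palmitate to stearate (ENSMUSG00000041220, chr3:129235304-129341413, plus strand), had the same kind of course, with 63.5, 78.6 and 80.8 normalised CPM on days 2, 4 and 6, a maximum of 117 on day 8, and 88.5, 72.3, 65.3, 62.8 and 56.5 afterwards. Neither passed as a line (Scd2 -0.31, SE = 0.28, adjusted P = 0.381, and Elovl6 -0.44, SE = 0.30, adjusted P = 0.240), and both changed by the spline (adjusted P = 0.000179 for Scd2 and 0.000974 for Elovl6). Without day 2 the lines of both fell past the threshold (-0.73, adjusted P = 0.00803 for Scd2, and -0.80, adjusted P = 0.0404 for Elovl6). The log2 levels of Scd2 and Elovl6 had r = 0.827 over the 9 libraries, whereas those of Scd1 and Scd2 had r = -0.323. Reads that match both desaturases were divided by RSEM: whole-number counts were found in none of the 27 profiles for Scd1 and in 3.70% for Scd2, so how reads were split between these similar genes is uncertain.

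The ratio of Scd1 to Scd2 in TPM was 0.517, 0.361 and 0.363 on days 2, 4 and 6, 0.384, 0.342 and 0.492 on days 8, 10 and 12, and 0.749, 1.49 and 2.51 on days 14, 16 and 18. Scd2 was thus the more abundant desaturase transcript up to day 14 and Scd1 on days 16 and 18. The log2 ratio rose with day by Pearson r (r = 0.791, two-sided exact permutation P = 0.00761, adjusted over the 2 ratios tested 0.00835) and by r without days 2 and 18 (0.845, exact permutation P = 0.00516, adjusted 0.0103). The rank correlation did not pass (rho = 0.650, exact permutation P = 0.0666, adjusted 0.0666).

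Of the genes of triglyceride assembly, 3 rose, and Gpd1 and Dgat2 had the largest rises of the 10. Gpd1, which reduces dihydroxyacetone phosphate to glycerol 3-phosphate (ENSMUSG00000023019, chr15:99547946-99555436, plus strand), was close to absent at first, with 0.631, 0.230, 0.327 and 0.670 normalised CPM on days 2, 4, 6 and 8. It stood at 2.71 on day 10 and then at 19.1, 38.3, 49.5 and 71.3 on days 12, 14, 16 and 18. Each value from day 10 on was above the one before it, and the highest was 309-fold the lowest. Day 4 rested on 10.5 estimated counts, with an exact 95% Poisson interval on the unscaled scale of 0.113 to 0.435 CPM, while day 18 rested on 3024. These intervals cover counting error only. The line gave 9.22 (SE = 1.04, adjusted P = 8.85e-05), a rise exceeded by 0.275% of all genes tested. Taken as groups, days 8, 10 and 12 already exceeded days 2, 4 and 6 (4.28, SE = 1.08, adjusted P = 0.0172). Day 8 alone (0.670) was level with day 2 (0.631), and the call was not made without day 4 or day 12. In TPM Gpd1 moved from percentile 28.5 of the library on day 2 to percentile 92.1 on day 18.

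Agpat2, the acyltransferase that makes phosphatidic acid (ENSMUSG00000026922, chr2:26448577-26459937, minus strand), lay between 7.39 and 9.27 normalised CPM on days 2 to 10 and then stood at 11.8, 14.9, 19.3 and 22.6 on days 12 to 18. Its line rose by 1.50 (SE = 0.25, adjusted P = 0.000709), and all 3 late days lay above all 3 early days. Inherited loss of this enzyme in people is a known cause of lipodystrophy. Dgat2, which adds the last acyl chain (ENSMUSG00000030747, chr7:106302173-106331223, minus strand), had 5.28, 4.47 and 2.86 normalised CPM on days 2, 4 and 6, then 3.32, 3.38 and 9.53, and then 17.1, 19.7 and 28.3 on days 14, 16 and 18. Its lowest value was on day 6, and the 3 late days were the 3 highest. The line rose (2.90, SE = 0.56, adjusted P = 0.00150).

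Dgat1 catalyses the same last reaction with an unrelated protein (ENSMUSG00000022555, chr15:76332445-76342381, minus strand). It had 7.18, 6.82 and 7.42 normalised CPM on days 2, 4 and 6, 6.44, 7.08 and 8.62 on days 8, 10 and 12, and 6.60, 6.41 and 11.1 on days 14, 16 and 18. The last day was the highest, and the other late days lay within or below the range of the early ones. Neither the line (0.36, SE = 0.24, adjusted P = 0.231) nor the spline (adjusted P = 0.315) passed, and without day 18 the line was -0.05 (adjusted P = 0.878).

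The ratio of Dgat1 to Dgat2 in TPM was 2.53, 3.05 and 5.15 on days 2, 4 and 6, 4.02, 3.30 and 1.55 on days 8, 10 and 12, and 0.702, 0.562 and 0.600 on days 14, 16 and 18. In TPM, Dgat1 was the more abundant of the pair up to day 12 and Dgat2 from day 14. The order on day 12 depended on length, since the ratio of counts on that day was 0.904. The mean length assigned to Dgat1 ranged from 1244 to 1576 bases among days. The log2 ratio fell with day by Pearson r (r = -0.832, two-sided exact permutation P = 0.00835, adjusted 0.00835) and without days 2 and 18 (r = -0.884, exact permutation P = 0.0103). By rank the raw value passed and the adjusted one did not (rho = -0.717, exact permutation P = 0.0369, adjusted 0.0666).

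**Figure D4:**
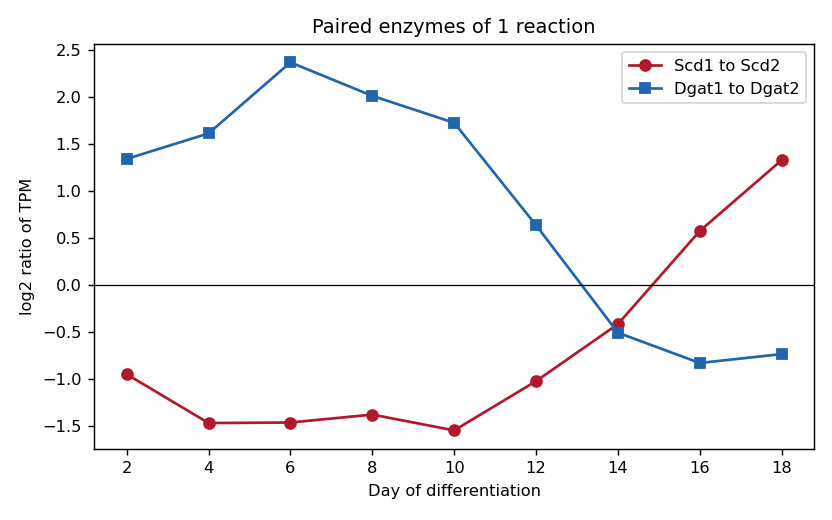
The log2 ratio of TPM (vertical axis) against day of differentiation (horizontal axis) for Scd1 to Scd2 (circles) and Dgat1 to Dgat2 (squares), with 1 point per day and a line at equal levels. Scd1 passes Scd2 between days 14 and 16 (ratios 0.749 and 1.49), and Dgat2 passes Dgat1 between days 12 and 14 (ratios 1.55 and 0.702).

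The days were also grouped into 3 stages, early (2, 4 and 6), middle (8, 10 and 12) and late (14, 16 and 18). From days 2 to 6 to days 14 to 18, 4 of the 10 genes rose (26.7% of all genes) and 3 fell (24.4%), 7 in all (51.1%), the genes named for the line in each direction. The differences were 7.06 for Gpd1 (SE = 1.15, adjusted P = 0.00126), 2.37 for Dgat2 (SE = 0.43, adjusted P = 0.00196), 1.14 for Agpat2 (SE = 0.21, adjusted P = 0.00191) and -0.57 for Acly (SE = 0.18, adjusted P = 0.0247). With day 4, 6, 14 or 16 left out, 1 gene was called as falling. The late days lay wholly above the early days in 4 genes, against 32.6% of all genes, and wholly below in 3, against 29.6%.

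From early to middle days 1 of the 10 genes rose (Gpd1, against 17.3% of all genes) and 1 fell (Fasn, against 13.6%), and these calls depended on single days: none was made without day 4 or day 12, and 1 without day 2, 10, 14, 16 or 18. From middle to late days edgeR called none of the 10 and none of the 15659 genes (0%), its smallest adjusted P being 0.199, although 2557 genes and 6 of the 10 had an unadjusted P under 0.05. The 6 were Scd1 (1.62), Gpd1 (2.78), Agpat2 (1.00), Dgat2 (1.97), Elovl6 (-0.59) and Acaca (-0.25). The fitted step of Scd1 was 0.09 from early to middle and 1.62 from middle to late days, that of Agpat2 0.14 and 1.00, that of Dgat2 0.39 and 1.97, and that of Gpd1 4.28 and 2.78. DESeq2 called 570 genes from middle to late days, among them Scd1 (adjusted P = 0.000557), Dgat2 (0.000631) and Agpat2 (0.00243). Without day 12 edgeR called 379 genes, including Gpd1, Dgat2, Agpat2 and Elovl6, and Scd1 was not among them (adjusted P = 0.0702).

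Genes around the 10 in the same pathways were mixed as well. Of 26 other genes of fatty acid synthesis, elongation and activation tested, 8 rose and 9 fell, with a median of -0.18 that was 0.06 in TPM (limma). Acsl1, which activates long-chain fatty acids, went from 15.9 to 193 normalised CPM (line 4.01, SE = 0.34, adjusted P = 2.26e-05), while its relative Acsl4, which prefers arachidonate, went from 92.0 to 25.1 (-2.51, SE = 0.31, adjusted P = 0.000130). Aacs, which makes acetoacetyl-CoA in the cytosol, fell from 28.3 to 12.4. Acacb, the carboxylase isoform at the mitochondrion, rose to 4.83 normalised CPM on day 18 (line 2.54, adjusted P = 0.000323), opposite in sign to Acaca. The desaturase Scd4 passed as a rise at no more than 1.66 normalised CPM on any day.

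Of 18 other genes of glycerolipid synthesis tested, 6 rose, 6 fell and 6 did not pass, with a median of 0.05 (-0.04 in TPM as deposited). Gpam, the mitochondrial enzyme of the first acylation, rose from 29.1 to 53.6 normalised CPM (0.85, SE = 0.12, adjusted P = 0.000312), and the phosphatidate phosphatase Lpin1 from 12.0 to 32.8 (1.00, SE = 0.25, adjusted P = 0.00630). The largest rises were those of Ppap2b, a lipid phosphate phosphatase (86.6 to 414), and Gpd1l, the relative of Gpd1 (10.8 to 33.2). The largest falls were those of Mogat2, an acyltransferase of monoacylglycerol (1.73 to 0.0236), and Ppap2c (9.82 to 7.85, line -0.95, adjusted P = 0.0284). The supply of NADPH, which Fasn consumes, was covered by 6 genes, of which Idh1 rose (0.90) and 3 fell, led by Pgd (-1.21) and Taldo1 (-0.84). A group of 15 genes of sterol synthesis, which share regulators with Fasn and Acly, held 12 falls and no rise, with a median of -1.38. Idi1, the isomerase of the isoprenoid branch, went from 63.7 to 18.2 normalised CPM, and Fdps, which makes farnesyl diphosphate, from 36.5 to 14.0.

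**Figure D5:**
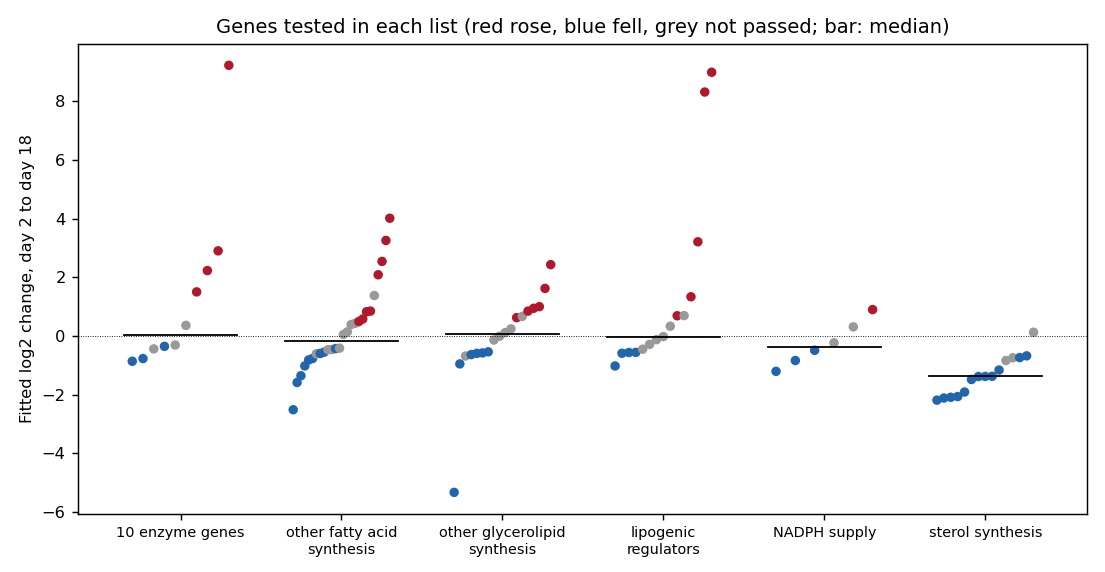
Fitted log2 change from day 2 to day 18 (vertical axis) of each gene tested in the 10 enzyme genes and 5 related lists, with a bar at each median. The medians lie between -0.36 and 0.05 except for sterol synthesis, at -1.38.

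Among 15 regulators of lipid synthesis, 5 rose and 4 fell, against 5 and 1 in upper-quartile TPM (limma) and 6 and 5 by DESeq2. The transcript of Srebf1, whose protein activates Fasn, Acaca and Scd1 in liver, did not pass as a line (34.7 normalised CPM on day 2 and 42.5 on day 18, line -0.02, SE = 0.20, adjusted P = 0.934), and neither did those of its escort Scap (0.33, adjusted P = 0.140) and its anchor Insig1 (-0.13, adjusted P = 0.741). Insig1 changed by the spline (adjusted P = 0.00112), with 55.5 normalised CPM on day 2, 99.9 on day 8 and 55.7 on day 12. Srebf2, the activator of sterol genes, fell by 0.59 (SE = 0.20, adjusted P = 0.0300), as did Mid1ip1, a partner of acetyl-CoA carboxylase, by 1.02. The glucose-responsive factor Mlxipl (ChREBP) went from 0 to 2.83 normalised CPM and Thrsp, a nuclear lipogenic protein, from 0.0234 to 16.8. Nr1h3, the liver X receptor alpha, rose from 0.398 to 5.21 (line 3.21, adjusted P = 0.000130). The processing of SREBP proteins is not seen in transcript levels.

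Adipocyte markers rose, as did 7 of 9 osteoblast markers and 6 of 7 monocyte and macrophage markers. All 8 adipocyte markers tested of 9 listed rose, and Lep did not pass the filter. Their summed level was 8.84, 5.09 and 4.44 TPM on days 2, 4 and 6, 9.88, 33.2 and 142 on days 8, 10 and 12, and 240.2, 424 and 507 on days 14, 16 and 18. Between 3 and 5 of the 9 markers held under 3 counts on each day up to day 10 and none from day 12. Adiponectin (Adipoq) went from 0.0935 to 59.0 normalised CPM, Plin1, the coat protein of lipid droplets, from 0.0701 to 48.7, Fabp4 from 0.468 to 44.9 and Cfd from 0.0468 to 14.3, while Pparg, the master regulator of the adipocyte, was present from the start (5.49 and 34.3). The osteoblast list went from 1617 to 4957 TPM and that of monocytes and macrophages from 24.1 to 2014 TPM over the same days, with Emr1 and Lyz2 leading the latter (0.140 to 32.3 and 14.0 to 1217 normalised CPM). The part of these cell types in the rises of Gpd1, Dgat2, Agpat2 and Scd1 was not tested.

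Over the 9 libraries, which share the trend in day, the log2 levels of Agpat2 and Dgat2 had r = 0.948, Gpd1 and Dgat2 r = 0.918, and Gpd1 and Agpat2 r = 0.917. Scd1 had r = 0.916 with Agpat2, 0.841 with Dgat2 and 0.749 with Gpd1. Acly and Gpd1 ran opposite (r = -0.907). Among 7610 genes with a mean of at least 10 TPM, those most like Dgat2 were Plod2 (r = 0.979), l7Rn6 (0.978), Esm1 (0.978), Pnpla2 (0.970) and Bglap (0.969), which include a triglyceride lipase (Pnpla2) and osteocalcin. An r of at least 0.9 with Dgat2 was reached by 1.29% of all genes tested. Those most like Fasn were Lap3 (0.995), Psmc2 (0.995), Thumpd3 (0.993), Naa15 (0.992) and Rdbp (0.992), among them a proteasome subunit (Psmc2), and 11.4% of all genes reached 0.9 with Fasn. For Gpd1, looked up after its values were seen, the 5 were Adipoq (0.992), Plin1 (0.992), Cidec (0.992), Car3 (0.992) and Cd36 (0.990), where 7.69% of all genes reached 0.9, and 3 of the 5 (Adipoq, Plin1 and Cidec) are on the adipocyte list. The other rising genes, also looked up afterwards, had no listed adipocyte marker among their 5. Such an r compares the shapes of log2 courses, which depend on the starting level. On day 2 Scd1 had 191, Agpat2 9.07 and Dgat2 5.28 normalised CPM, and Adipoq 0.0935. The absence of a marker is thus no measure of the cell type behind a rise, which was not tested. Those of Agpat2 were Bglap (0.991), Ptgis (0.983), Pnpla2 (0.983), Gm525 (0.972) and Tpd52l2 (0.972), where 1.65% of all genes reached 0.9. Those of Scd1 were Gpnmb (0.967), Irak1 (0.966), Pfkfb3 (0.963), Poldip2 (0.951) and Tpd52l2 (0.951), where 0.332% did.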

How the data were processed

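RNA was amplified (NuGEN Ovation), made into TruSeq libraries and sequenced by the authors, who aligned reads to the NCBIM37 mouse transcriptome with Bowtie 0.12.9 and quantified genes with RSEM 1.2.8, per the labels. The files deposited by the authors give unnormalised estimated counts for each gene, in which a read shared by several transcripts is divided among them. The TPM values deposited by the authors divide counts by a length averaged over isoforms. The strand setting of counting is not given in the sources used here. Totals per profile ranged from 7331125 to 20888956 counts.

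The profiles of a day differ in lane only and, over genes with whole-number counts, differed by no more than sampling noise (chi-square per degree of freedom 0.999 to 1.02). Their counts were summed and rounded, giving 9 libraries. Each p-value measures the spread of these libraries around the fitted course. Genes were fitted on day as a line, as a natural spline with 3 degrees of freedom, and in 3 stages of 3 days, with edgeR 4.0.16 in R 4.3.3 (quasi-likelihood test, upper-quartile factors, genes kept by filterByExpr at a minimum count of 10, Benjamini-Hochberg adjusted p under 0.05 over all 15659 genes). The fits were also run on simulated counts with a smaller spread than that around the line, and no support is drawn from them here. The change of a line is that from day 2 to day 18. TPM was scaled so that the 75th percentile of the values above 0 was equal in all 27 profiles. Ratios were tested over all 362880 orders of the days with scipy 1.17.1. Alternatives were TMM factors, DESeq2 1.42.0, other filters, mitochondrial ribosomal RNA left out, TPM by limma 3.58.1 on log2(TPM + 0.5), 27 profiles without and with a replicate block, and each profile number or day left out.

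The 10 genes and the 8 lists around them (112 genes) were chosen with earlier results of these data known. The lists contributed the genes with the 2 largest rises and falls that passed, beside a fixed set of regulators, synthesis enzymes (Acacb, Gpam and Lpin1) and adipocyte markers (Pparg, Adipoq, Plin1, Fabp4 and Cfd), and likeness named the 5 genes nearest to Fasn and to Dgat2. Hmgcs1 was not analysed here, and 2 other listed genes are not reported here. Symbols were matched for 37205 of 37991 gene identifiers.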

Additional observations from a re-analysis of the deposited data

How the results depend on the processing

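The 4 rises were called under every alternative run, with each day left out in turn 8.69 to 10.7 for Gpd1, 2.63 to 3.76 for Dgat2, 1.60 to 2.51 for Scd1 and 1.32 to 1.88 for Agpat2, as were the falls of Fasn (-1.03 to -0.76) and Acly (-0.90 to -0.71). The line of Gpd1 was 7.68, 7.55 and 7.70 in upper-quartile, deposited and fixed-length TPM, where the pseudocount of 0.5 lowers the change of low values. Of 220 values for single genes under alternatives, 204 kept direction and call, 4 turned in sign, 6 gained a call and 6 lost one. Acaca turned to 1.60 in upper-quartile TPM and to 1.43 in TPM as deposited, where its assigned length varied between profiles, and its fall ranged from -0.45 to -0.30 with a day left out. Dgat1 turned to -0.0705 in TPM as deposited and to -0.0460 without day 18, within -0.05 to 0.52 over the days left out, and the cause was not tested. Leaving out a day gave 2 to 5 falls along day (5 without day 2), 0 to 3 calls from early to middle days, 0 to 4 from middle to late days and 1 to 3 falls from early to late days. Upper-quartile TPM and TPM as deposited each gave 0 calls from early to middle days and 1 fall from early to late days, fixed-length TPM gave 1 and 1, and DESeq2 called 3 genes from middle to late days, and the cause was not tested. The 27 profiles entered separately, without and with the replicate block, gave 4 and 4 calls from early to middle days, 8 and 8 from middle to late days and 5 and 5 falls from early to late days, and Elovl6 (-0.45, adjusted p = 0.0355 with the block) and Dgat1 (0.36, adjusted p = 0.0316 with the block) passed as lines. Those fits treat lanes as replicates, and the common dispersion was 0.000240 between the lanes of a day and 0.0581 around the line. Profiles with the same replicate number on different days did not deviate together (mean r = 0.00506, from -0.0837 to 0.0849), so the numbers pair no samples. Both ratios kept direction and call by Pearson r in all 26 alternatives. All genes called along day numbered 8510, with 7187 to 8447 when a day was left out. The median line of all genes was 0.05, and 0.12 in upper-quartile TPM, where 58.5% of calls were rises (52.0% with counts, 48.0% in TPM as deposited). Low counts limit Gpd1 before day 10.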
